A study of Mus musculus with 24 samples.

Results

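The genes for the IGF-binding proteins, Igfbp1 to Igfbp7, were examined in whole livers of C57BL/6J mice. The members were the rows whose Ensembl ID carried 1 of these 7 symbols, that is 7 of the 56205 genes in the deposited count table, and all 7 had enough counts to be tested among 17913 tested genes. The table held 24 RNA-Seq libraries, 12 from mice fed a high-fat diet and 12 from mice fed a control diet, both for 20 weeks. The labels name the diet as high fat without its composition. The study's methods describe a diet of palm oil, fructose and cholesterol for C57BL/6J mice, matched with a control diet, and give an age of 8 to 10 weeks at its start. The mice of both groups carried no transgene or mutation named in the labels, each library came from poly(A)-selected RNA of whole liver, and no label ties libraries to litters or cages. The comparison asks how a diet model of fatty liver disease with fibrosis changed these genes.

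IGF-binding proteins are secreted proteins that hold insulin-like growth factors 1 and 2 in the blood and in tissue. They lengthen the life of the growth factors and limit their access to the receptor, and proteases release the growth factors by cutting the binding protein. In the blood most IGF-1 travels in a ternary complex of IGF-1, IGFBP-3 or IGFBP-5, and the acid-labile subunit, which is encoded by Igfals. The liver is the main source of circulating IGF-1. Its hepatocytes make IGFBP-1, IGFBP-2 and IGFBP-4, whereas IGFBP-3 comes largely from non-parenchymal cells, and IGFBP-7, which binds insulin-like growth factors with low affinity, is a matrix-associated product of stellate and endothelial cells. In bulk RNA, more cells of a type and more RNA per cell cannot be told apart.

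On the high-fat diet Igfbp7 and Igfbp5 rose, by 2.30-fold and 1.70-fold. Igfbp4, the member with the highest level per kilobase, stood at 0.722 of the control level, with a log2 fold change just short of the threshold for a call. Igfbp3 and Igfbp6 had positive estimates and Igfbp1 and Igfbp2 negative ones that did not pass the test. The rise of Igfbp7 was larger in 1 of the 2 sets of libraries that Xist separates.

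Counts on genes ran from 14468418 to 22112552 per library. Scaling used TMM factors, a correction for the composition of each library, which ran from 0.679 to 1.01 on the control diet and from 0.994 to 1.34 on the high-fat diet. Levels are given as CPM, the counts of a gene relative to its library's scaled total. Xist, the RNA of the inactive X chromosome, had 2664 to 6285 counts in 12 libraries, here called Xist-high, and 0 to 3 in the other 12, called Xist-low. Ddx3y, a Y-linked gene, had 0 counts in the Xist-high libraries and 448 to 1016 in the Xist-low ones. Each set held 6 libraries per diet (replicates 1 to 6 Xist-high, 7 to 12 Xist-low), which is the number of mice per diet and sex in the series description, but no label gives the sex of a library. Hepatocyte markers were abundant, with summed levels of 36545 to 129543 CPM over 6 markers. Control replicate 11 stood apart from the other control libraries: it had the highest summed level of activated stellate cell markers on that diet (164 CPM, against 164 in the lowest high-fat library and 94.4 in the next control library). High-fat replicate 9 had the highest TMM factor and the highest cholangiocyte marker sum (167 CPM). Estimates that leave out control replicate 11 or high-fat replicate 9 are given for Igfbp2, Igfbp3 and Igfbp7.

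The sequences upstream of the start site are shown for the members on which the results turn: Igfbp7 and Igfbp5, which rose, Igfbp4, which has the highest mean level, and Igfbp1, whose upstream region holds the textbook insulin response element. Each is the 250 bases before the RefSeq start, from GRCm38.p6, written 5′ to 3′ on the gene's strand. They lie at chr5:77408046-77408295 (minus strand) for Igfbp7, chr1:72874866-72875115 (minus) for Igfbp5, chr11:99040994-99041243 (plus) for Igfbp4 and chr11:7197537-7197786 (plus) for Igfbp1. Capitals mark the GC box (GGGCGG) in Igfbp7, the TATA box (TATAAA) in Igfbp4 and the insulin response half-sites (TGTTTTG and TATTTTG) in Igfbp1, each searched on both strands; no motif was marked in Igfbp5.
Igfbp7: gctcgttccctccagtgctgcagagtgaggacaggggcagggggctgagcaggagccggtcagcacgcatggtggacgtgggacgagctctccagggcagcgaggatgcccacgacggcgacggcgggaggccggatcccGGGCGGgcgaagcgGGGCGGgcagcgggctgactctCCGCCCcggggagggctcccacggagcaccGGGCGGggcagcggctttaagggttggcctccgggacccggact
Igfbp5: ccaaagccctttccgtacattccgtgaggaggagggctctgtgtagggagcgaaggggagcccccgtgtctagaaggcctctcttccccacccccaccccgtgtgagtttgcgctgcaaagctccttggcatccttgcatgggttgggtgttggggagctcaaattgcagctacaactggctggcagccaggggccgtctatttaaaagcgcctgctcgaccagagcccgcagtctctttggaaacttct
Igfbp4: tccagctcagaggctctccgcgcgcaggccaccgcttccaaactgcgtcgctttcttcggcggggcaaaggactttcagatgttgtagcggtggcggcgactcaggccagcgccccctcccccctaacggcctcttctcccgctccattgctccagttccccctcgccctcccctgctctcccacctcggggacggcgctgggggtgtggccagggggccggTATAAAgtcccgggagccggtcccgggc
Igfbp1: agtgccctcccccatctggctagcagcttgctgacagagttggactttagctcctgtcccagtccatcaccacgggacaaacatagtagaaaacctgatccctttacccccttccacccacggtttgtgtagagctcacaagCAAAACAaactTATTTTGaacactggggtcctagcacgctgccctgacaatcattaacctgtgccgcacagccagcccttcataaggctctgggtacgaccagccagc
The Igfbp7 window was 74% G or C and held 4 GC boxes, which begin 110, 96, 74 and 44 bases before the start. At least 1 GC box occurred in 32.7% of 32851 RefSeq promoter windows of this length. A window of Igfbp2, which was not called with the diet, held 3. The Igfbp4 window had 1 TATA box, 28 bases before the start, a motif that 12.4% of windows hold. The Igfbp6 window also held 1, at 148 bases before the start. Both insulin response half-sites lay next to each other in the Igfbp1 window, at 108 bases (read from the other strand, CAAAACA as printed) and 97 bases before the start. Both half-sites together occurred in 0.381% of windows, and neither occurred in the windows of the other 6 members. These matches describe the sequence only.

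The 7 genes lie at 5 places in the genome (GENCODE M21 on GRCm38, the build that the submitters' notes call mm10). Igfbp1 (chr11:7197782-7202546, plus strand) and Igfbp3 (chr11:7206086-7213923, minus) face each other tail to tail 3539 bp apart. Igfbp2 (chr1:72824503-72852474, plus) and Igfbp5 (chr1:72857932-72874884, minus) are arranged the same way 5457 bp apart, and 0 annotated genes lie between the genes of either pair. Igfbp4 is at chr11:99041244-99054392 (plus), Igfbp6 at chr15:102144362-102149511 (plus) and Igfbp7 at chr5:77349240-77408041 (minus). The end of Igfbp7 shares 85 bp of exon with Polr2b on the plus strand, and whether the counting used strand is not given in the sources used here. Polr2b, an RNA polymerase II subunit, had a log2 fold change of −0.30 ± 0.082 (SE). The part of reads from the shared exon in the Igfbp7 counts was not tested. The antisense gene Gm34648 overlaps the Igfbp7 gene but shares 0 bp of its exons.

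Levels of different genes were compared per kilobase of exon (CPM per kb). On the control diet the order was Igfbp4, Igfbp2, Igfbp7, Igfbp1, Igfbp3, Igfbp5 and Igfbp6, with means of 546 ± 59.2, 304 ± 108, 77.4 ± 20.2, 21.7 ± 21.6, 8.0 ± 3.6, 1.12 ± 0.33 and 0.691 ± 0.522 CPM per kb (SD, n = 12). The high-fat means had the same order, at 394 ± 66.9, 247 ± 133, 178 ± 78.2, 20.1 ± 15.7, 11.2 ± 2.72, 1.90 ± 0.61 and 1.13 ± 0.75 CPM per kb (SD, n = 12). The members thus spanned levels from a major liver transcript to a few reads per library. Most neighbours in this order had overlapping ranges. Igfbp4 was above Igfbp2 in 12 of 12 control and 10 of 12 high-fat libraries, and their ranges overlapped on both diets. On either diet Igfbp3 was above Igfbp5 in 12 of 12 libraries without overlap of the ranges. Igfbp2 was above Igfbp7 in 11 of 12 control libraries and in 8 of 12 high-fat libraries, again with overlapping ranges on both diets. Igfbp7 was above Igfbp1 in 12 of 12 libraries on each diet, with an overlap of ranges on the control diet only. Igfbp1 was above Igfbp3 in 10 of 12 control and 9 of 12 high-fat libraries, and Igfbp5 above Igfbp6 in 11 of 12 on each diet, so these neighbours were not separated beyond their spread.

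Igfbp4 made up 57.6% ± 5.2 of the summed CPM per kb of the 7 members on the control diet and 47.3% ± 8.2 on the high-fat diet (SD, n = 12). The share of Igfbp7 was 8.39% ± 3.34 on the control diet and 21.3% ± 7.9 on the high-fat diet. Igfbp2 held 30.8% ± 7.7 and 27.4% ± 8.7. The remaining 4 members each held under 3% on average on either diet. The sum itself ran from 640 to 1170 CPM per kb (median 981) in control and from 603 to 1288 (median 824) in high-fat libraries, so the ranges overlapped.

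**Figure D1:**
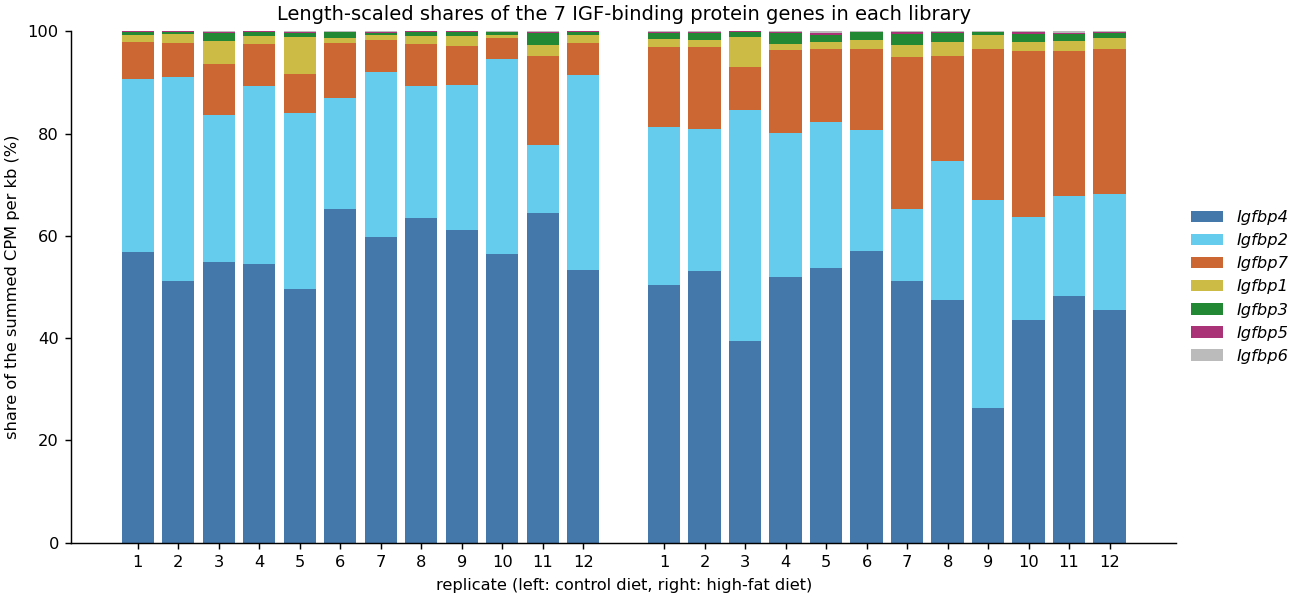
Stacked bars give, for each library (x axis, replicates 1 to 12 of each diet), the share in percent (y axis) of each gene in the summed CPM per kb of the 7 genes. The orange Igfbp7 part averages 8.39% on the control diet and 21.3% on the high-fat diet, and control replicate 11 has the largest Igfbp7 part among the control bars.

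A call needed an adjusted p no larger than 0.01 together with a log2 fold change beyond 0.5 in either direction, from edgeR's quasi-likelihood test and Benjamini-Hochberg adjustment over all tested genes. Of the 7 members 2 were called higher on the high-fat diet, where 13.2% of tested genes were, and 0 lower, where 4.99% were. By edgeR's unadjusted p, 4 of the 7 had a value under 0.05 (Igfbp3, Igfbp4, Igfbp5 and Igfbp7), where 47.8% of tested genes did. Of these Igfbp4 had a negative estimate, and DESeq2 and limma-voom also called 0 members lower. The median log2 fold change of the members was 0.49, beside −0.03 for all tested genes. Over all 24 libraries no member separated the diets without overlap, while 1.48% of genes did so with higher and 0.402% with lower values on the high-fat diet.

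**Figure D2:**
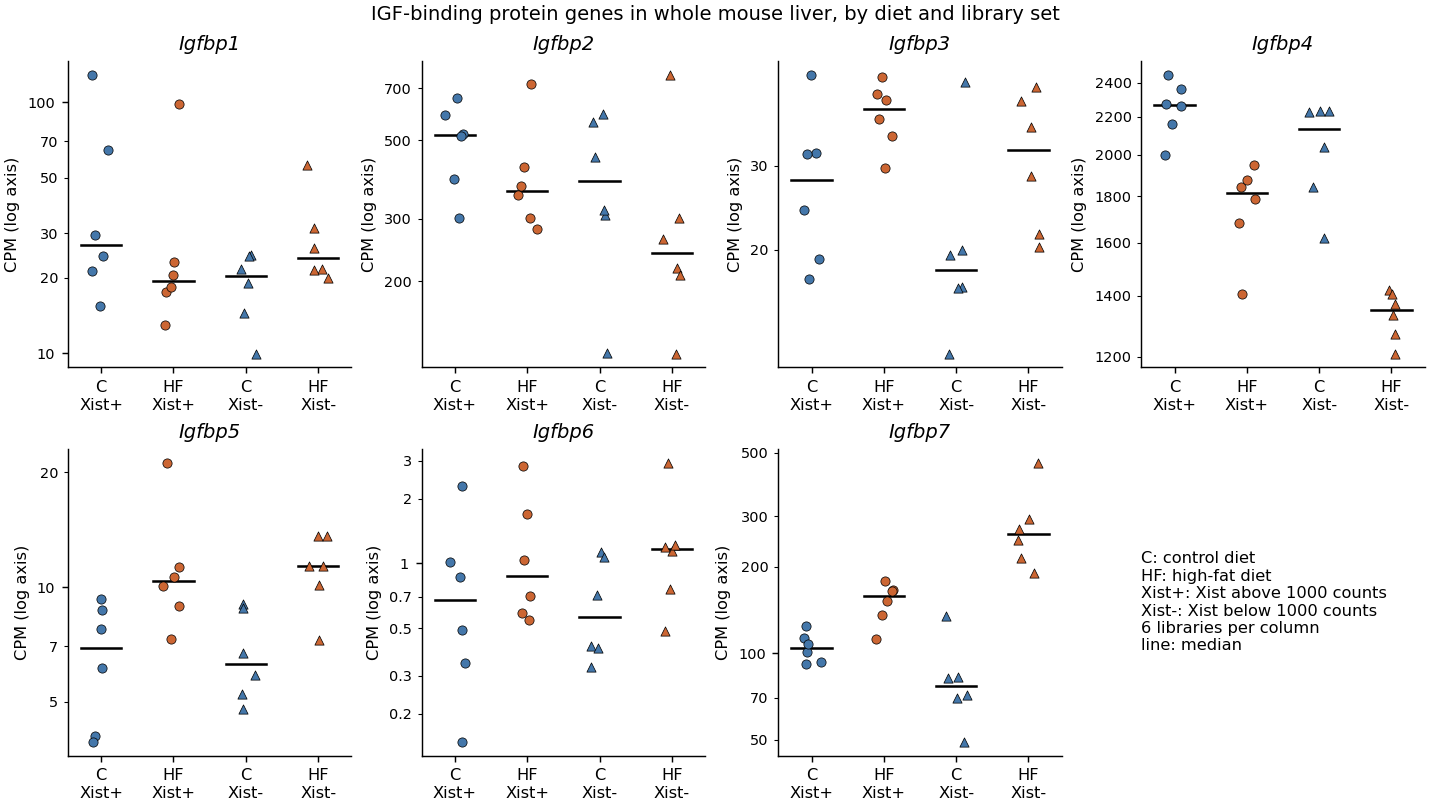
Points are the CPM (y axis, log scale) of single libraries for each of the 7 genes, grouped on the x axis by diet and by Xist counts, with 6 libraries a column and a line at the median. The Igfbp7 columns of the Xist-low libraries do not overlap, with control values of 49.2 to 135 and high-fat values of 190 to 460 CPM, and the Igfbp4 columns do not overlap within either set.

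Igfbp7, which encodes the low-affinity binding protein that accumulates in vessel walls and matrix, had control levels of 49.2 to 135 CPM (median 92.4). High-fat libraries had 112 to 460 CPM (median 184). Of the 12 high-fat libraries, 11 lay above the highest control library, replicate 11, and the remaining one, replicate 3, lay above 9 of the 12 control libraries. The log2 fold change was 1.20 ± 0.19 (SE; edgeR adjusted p = 2.93e-05), and the 2-sided permutation test of mean log2(CPM + 1) gave p = 2e-05, the smallest that 100000 resamples allow. High-fat replicate 9 held the highest level, 460 CPM, and control replicate 10 the lowest, 49.2 CPM; without both the log2 fold change was 0.99 (edgeR adjusted p = 2.79e-05), and without control replicate 11 it was 1.26 (adjusted p = 2.31e-05).

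Igfbp5, the most conserved member and a matrix-binding carrier in the ternary complex, was a low transcript, with 47 to 379 counts per library. Its level was 3.94 to 9.33 CPM (median 6.43) in control and 7.27 to 21.1 CPM (median 10.97) in high-fat libraries. Most high-fat libraries, 9 of 12, exceeded every control library, and all 12 exceeded the control median. Igfbp5 rose by 0.76 ± 0.17 on the log2 scale (SE; edgeR adjusted p = 0.000954; permutation p = 0.0002, 2-sided). The highest value, 21.1 CPM, came from high-fat replicate 5, and without that library the log2 fold change was 0.65 with the call kept.

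Igfbp4, whose product mostly restrains IGF-1 until the protease PAPP-A cuts it, had 1618 to 2446 CPM (median 2229) in control libraries. The high-fat range was 1209 to 1948 CPM (median 1414). All 12 high-fat libraries were below the control median, 7 were below every control library, and the ranges overlapped. The log2 fold change was −0.47 ± 0.094 (SE; edgeR adjusted p = 0.000348; permutation p = 4e-05, 2-sided), which passed the p threshold and missed the fold threshold. Leaving out high-fat replicate 6 (−0.50, adjusted p = 0.000186) or control replicate 11 (−0.50, adjusted p = 0.000149) took it just past the threshold. With library totals in place of TMM, a scaling under which the median of all genes moved to 0.26, the value was −0.19 (adjusted p = 0.075) and so again below that median.

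Igfbp3, the main carrier of circulating IGF-1, had 12.2 to 46.3 CPM (median 19.8) in control and 20.3 to 45.9 CPM (median 36.9) in high-fat libraries. All 12 high-fat libraries lay above the control median and none above the highest control library, replicate 3; control replicate 11 came next to it among the control libraries at 44.8 CPM. The log2 fold change of 0.49 ± 0.19 (SE; edgeR adjusted p = 0.0471; permutation p = 0.0149, 2-sided) did not pass the threshold. Without control replicate 11 it was 0.59 (edgeR adjusted p = 0.0129), and as single libraries were left out it ran from 0.42 to 0.60 with adjusted p from 0.0113 to 0.0772. It passed with library totals (0.74, edgeR adjusted p = 0.00424), beside a median of 0.26 for all genes under that scaling.

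Igfbp2, an insulin- and fasting-regulated hepatocyte product, had 125 to 656 CPM (median 481) in control and 125 to 764 CPM (median 302) in high-fat libraries. The diets overlapped over nearly the whole range: 10 of 12 high-fat libraries lay below the control median, and replicates 3 and 9 lay above every control library. The estimate on the log2 scale was −0.30 (95% interval −0.80 to 0.20; edgeR adjusted p = 0.368; permutation p = 0.223, 2-sided). Without high-fat replicate 9 it was −0.44 (edgeR adjusted p = 0.159).

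Igfbp1, the acutely regulated member that insulin represses and fasting or stress induces, had 9.98 to 128 CPM (median 22.98) in control and 12.9 to 97.9 CPM (median 21.5) in high-fat libraries. Over the 12 libraries of a diet its coefficient of variation was 99.4% on the control and 78.0% on the high-fat diet, against 10.8% and 17.0% for Igfbp4. Within the Xist-low libraries it was 30.8% and 46.8%, below the 45.1% and 73.0% of Igfbp2. A few libraries carried this spread: control replicates 5 and 3 had 128 and 64.2 CPM, and high-fat replicates 3 and 9 had 97.9 and 56.3 CPM. The log2 fold change was −0.11 (95% interval −0.85 to 0.62; edgeR adjusted p = 0.832; permutation p = 0.964, 2-sided). Its sign turned without control replicate 5 (0.32) or control replicate 3 (0.01), so no direction can be given.

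Igfbp6, which prefers IGF-2, was at the edge of detection, with 3 to 60 counts per library, so counting error alone is large. Control libraries had 0.149 to 2.29 CPM (median 0.602) and high-fat libraries 0.483 to 2.93 CPM (median 1.09). The highest library of each diet, control replicate 5 and high-fat replicate 11, lay well apart from its median. The estimated change was 0.71 on the log2 scale (95% interval −0.02 to 1.43; edgeR adjusted p = 0.132; permutation p = 0.0787, 2-sided).

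The diet effect was then fitted within each set of 12 libraries. In the Xist-high libraries 1 of 7 members was called higher, against 2.9% of genes, and 0 lower, against 0.882%, where Igfbp4 was the sole member with a negative estimate and an unadjusted edgeR p under 0.05, as were 12.9% of genes. In the Xist-low libraries 2 were called higher, against 14.4% of genes, and 1 lower, against 7.99%. Without overlap of the diets, 0 of 7 were higher and 1 lower in the Xist-high set, where 3.51% and 2.39% of genes were, and 1 was higher and 1 lower in the Xist-low set, where 12.6% and 9.66% of genes were.

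**Figure D3:**
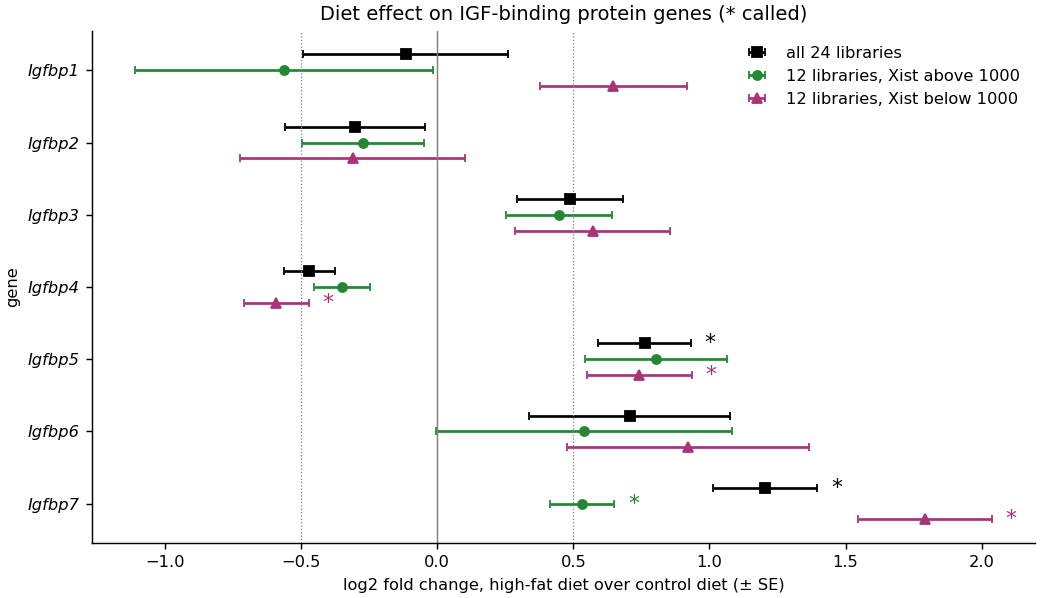
Log2 fold changes of the high-fat over the control diet (x axis, bars are SE) for each gene (y axis) in all 24 libraries and in the 12 Xist-high and 12 Xist-low libraries, with a star at called values and dotted lines at the fold threshold. Igfbp7 lies at 0.53 in the Xist-high and 1.79 in the Xist-low libraries, whereas the Igfbp5 values of 0.80 and 0.74 lie side by side.

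The Xist-high control libraries had 91.9 to 125 CPM of Igfbp7 with a median of 105, and the high-fat ones 112 to 178 with a median of 159. The Xist-low control libraries had 49.2 to 135 CPM with a median of 76.8, and the high-fat ones 190 to 460 with a median of 260. The diets overlapped by a single high-fat library, replicate 3, in the first set and did not overlap in the other. Igfbp7 rose by 1.45-fold in the Xist-high libraries (log2 fold change 0.53 ± 0.12 SE; edgeR adjusted p = 0.00859; exact permutation p = 0.00649, 2-sided) and by 3.46-fold in the Xist-low libraries (1.79 ± 0.25 SE; edgeR adjusted p = 7.09e-05; exact permutation p = 0.00216, the smallest that 6 against 6 allows). The difference between these effects was 1.25 ± 0.28 on the log2 scale (edgeR interaction term, adjusted p = 0.00486), a test that 4.04% of genes passed in either direction. This call was near the threshold: adjusted p was 0.0103 without high-fat replicate 4, 0.0110 without control replicate 6 and 0.0106 without control replicate 7, at differences of 1.22, 1.19 and 1.21. Without high-fat replicate 9 the difference was 1.06 (edgeR adjusted p = 0.00724). Some marker sums differed between the high-fat sets in the same libraries, without overlap. The share of all genes that did so was not computed. The sums weigh abundant markers most. On the high-fat diet Col1a1 and Col3a1 had means of 119 and 171 CPM among the activated stellate cell markers. Alb had a mean of 45210.5 CPM among the hepatocyte markers. Activated stellate cell markers had 164 to 271 CPM in the Xist-high and 305 to 505 CPM in the Xist-low libraries. Monocyte-derived macrophage markers had 102 to 129 and 168 to 240 CPM, and portal fibroblast markers 20.4 to 41.8 and 47.2 to 122 CPM. Hepatocyte markers had 66106 to 88434 and 36545 to 45834 CPM. The other marker sums overlapped between the high-fat sets. Sinusoidal endothelial markers had 305 to 412 and 189 to 349 CPM, and vascular endothelial markers 157 to 202 and 141 to 230 CPM. Quiescent stellate cell markers had 225 to 336 and 143 to 296 CPM. The part of any of these cell types in the Igfbp7 difference was not tested.

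Igfbp4 separated the diets in both sets, with 1405 to 1948 against 2000 to 2446 CPM in the Xist-high and 1209 to 1421 against 1618 to 2233 CPM in the Xist-low libraries. It fell in the Xist-low libraries (log2 fold change −0.59 ± 0.12 SE; edgeR adjusted p = 0.00143) and had a value of −0.35 ± 0.10 (SE; edgeR adjusted p = 0.0326) in the Xist-high ones. The difference of −0.25 between the sets had a 95% interval of −0.53 to 0.04 (edgeR adjusted p = 0.310). Igfbp5 had nearly the same estimate in the Xist-high libraries (0.80 ± 0.26 SE; edgeR adjusted p = 0.0513) and the Xist-low libraries (0.74 ± 0.19 SE; edgeR adjusted p = 0.00709), and the interval of the difference, −0.75 to 0.60, was wide.

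Igfbp1 had opposite signs in the sets, −0.56 ± 0.55 (SE) in the Xist-high and 0.65 ± 0.27 (SE) in the Xist-low libraries, neither called. The difference of 1.20 ± 0.68 (SE) did not pass the test (edgeR adjusted p = 0.289), and it was 0.60 without control replicate 5 and 1.98 without high-fat replicate 3 (adjusted p = 0.609 and 0.0238). On the control diet the 6 Xist-high libraries had 15.4 to 128 CPM of Igfbp1 with a median of 27.0 and the 6 Xist-low ones 9.98 to 24.7 with a median of 20.3. No member was called between the sets on the control diet (0 of 7, against 5.74% of genes; edgeR, with 1 of 7 at an unadjusted p under 0.05, against 23.3% of genes, which was Igfbp1 at −1.30 ± 0.49 SE, adjusted p = 0.0908).

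The genes around the binding proteins were read from lists of the pathway. Beside the counts of each list, 13.2% of all tested genes were called higher and 4.99% lower. Among 5 ligands and receptors 0 were called higher and 1 lower: Igf1, the growth factor itself, with 458 to 677 CPM on the control and 241 to 480 CPM on the high-fat diet, fell by 0.70 ± 0.12 (SE) on the log2 scale (edgeR adjusted p = 8.46e-05). Insr, the insulin receptor, had −0.50 ± 0.11 (SE), just short of the fold threshold, and Igf1r, the IGF-1 receptor, 0.38 ± 0.22 (SE; edgeR adjusted p = 0.169). Of 7 genes of growth hormone signalling and the ternary complex 2 were lower, Igfals (−0.77 ± 0.21 SE) and Ghr, the growth hormone receptor (−0.66 ± 0.12 SE), and 0 higher.

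Of 11 listed proteases that cut the binding proteins, and stanniocalcins that inhibit PAPP-A, 9 were tested. On the high-fat diet 6 of 9 were higher, where 13.2% of tested genes were, and 0 lower, where 4.99% were. The matrix metalloproteinase Mmp2 rose by 2.42 ± 0.34 (SE), Adam12 by 2.15 ± 0.32, the serine proteases Htra1 and Htra3 by 2.07 ± 0.32 and 1.37 ± 0.25, and the inhibitors Stc2 and Stc1 by 1.76 ± 0.42 and 2.73 ± 0.74 on the log2 scale. Stc1 was scarce, at a mean of 0.0413 CPM on the control and 0.317 CPM on the high-fat diet. Pappa, the protease that cuts IGFBP-4, had −0.09 ± 0.62 (SE) at 0.119 and 0.109 CPM, and Pappa2 and Adam28 had too few counts to be tested.

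Proteins related to the family by their cysteine-rich domain had 3 of 8 tested genes higher out of 10 listed, namely Ccn5 (2.72 ± 0.62), Esm1 (1.23 ± 0.36) and Ccn4 (0.89 ± 0.26 SE on the log2 scale), and 0 lower. Among 5 surface partners 1 was higher, Cd93, an endothelial receptor of IGFBP-7 (1.44 ± 0.22 SE; edgeR adjusted p = 1.83e-05). Of 8 insulin- and FoxO1-responsive genes, the group to which Igfbp1 belongs by its response element, 3 were lower: G6pc (−1.15 ± 0.26) and Pck1 (−1.12 ± 0.21), enzymes of glucose production, and their coactivator Ppargc1a (−0.80 ± 0.24 SE). Of 8 genes of the integrated stress response, which also induces Igfbp1, 2 were higher, Atf3 (2.50 ± 0.26) and Trib3 (0.75 ± 0.18 SE). Over all tested genes 13.2% were called higher and 4.99% lower. The median log2 fold change was −0.43 for the ligands and receptors, −0.31 for growth hormone signalling, 1.76 for the proteases, 0.71 for the related proteins, 0.10 for the surface partners, −0.50 for the insulin-responsive and 0.43 for the stress genes, beside −0.03 for all tested genes.

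**Figure D4:**
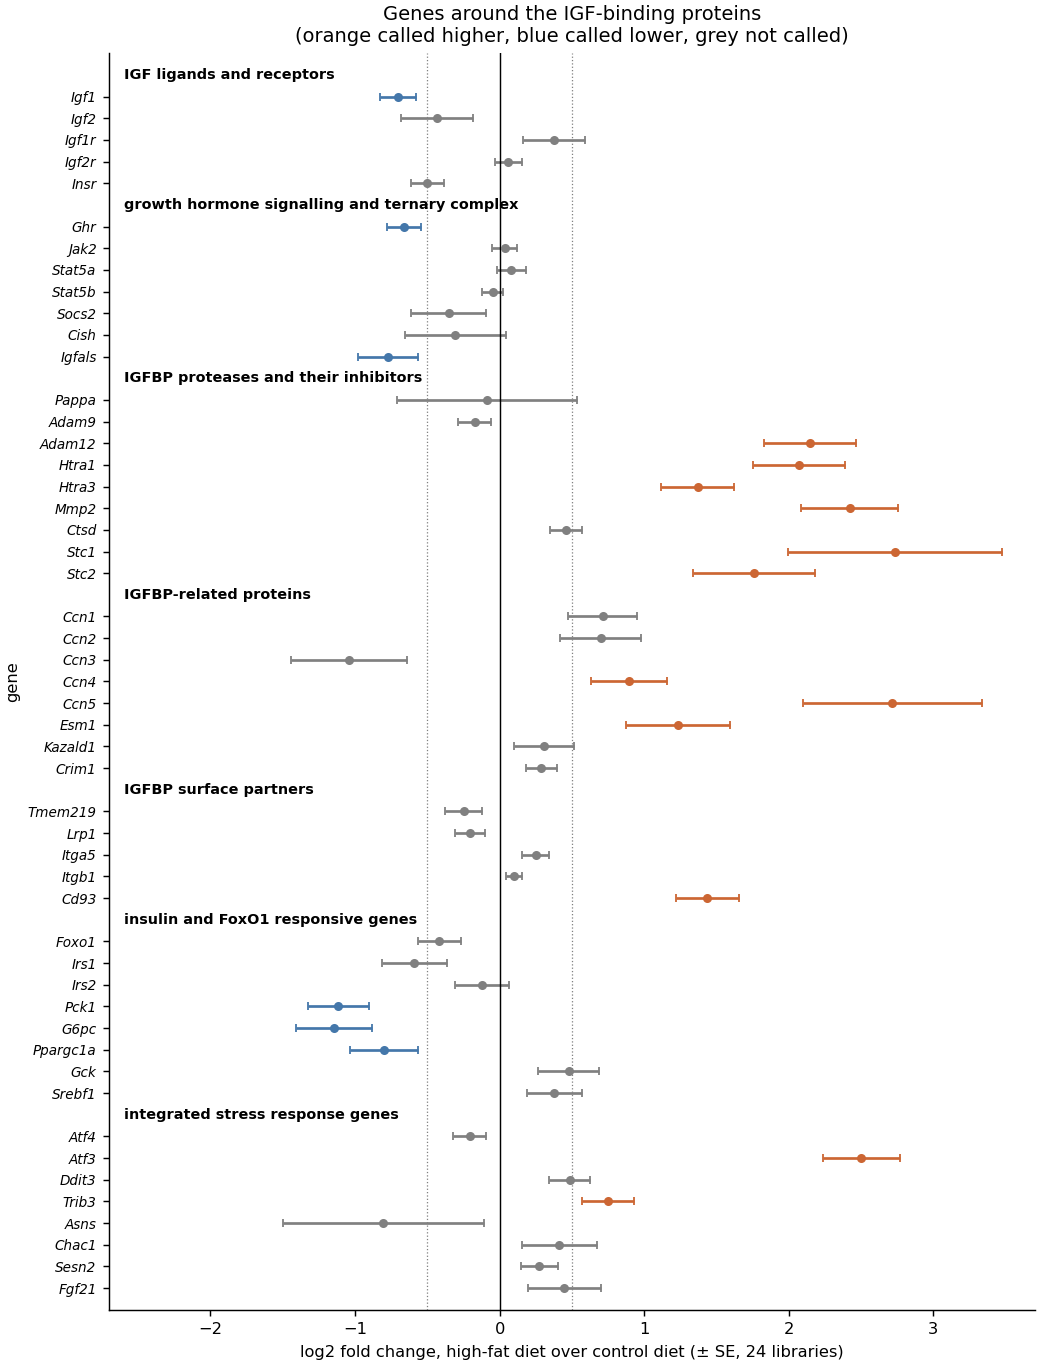
Log2 fold changes of the high-fat over the control diet (x axis, bars are SE, 24 libraries) for the tested genes (y axis) of 7 lists around the IGF-binding proteins, orange where called higher, blue where called lower and grey otherwise. The proteases and their inhibitors lie mostly on the right, with 6 of 9 called higher, where 13.2% of tested genes were. Igf1, Igfals and Ghr lie on the left.

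Marker genes of several cell types moved with the diet, and their part in the values of Igfbp7, Igfbp5 and Igfbp4 was not tested. Over all tested genes, 13.2% were called higher and 4.99% lower on the high-fat diet. Of 6 activated stellate cell or myofibroblast markers 5 were higher, with summed levels of 25.96 to 164 CPM on the control and 164 to 505 CPM on the high-fat diet. The corresponding counts and sums were 4 of 6 portal fibroblast markers (12.2 to 32.9 and 20.4 to 122 CPM), 2 of 5 vascular endothelial markers (78.8 to 158 and 141 to 230 CPM) and 1 of 7 sinusoidal endothelial markers (180 to 395 and 189 to 412 CPM). Quiescent stellate cell markers had 2 of 6 higher and 1 lower (163 to 410 and 143 to 336 CPM). Smooth muscle had 0 of 4 (8.92 to 24.6 and 12.97 to 21.7 CPM) and mesothelium 1 of 5 (1.45 to 5.95 and 3.39 to 11.5 CPM). Of the other cell types, 4 of 5 cholangiocyte markers (5.01 to 15.7 and 5.86 to 167 CPM), 6 of 6 of monocyte-derived macrophages (17.6 to 53.7 and 102 to 240 CPM), 1 of 5 of Kupffer cells (109 to 468 and 170 to 779 CPM) and 0 of 5 of T or B cells (1.83 to 7.46 and 2.62 to 6.66 CPM) were higher. Of 6 hepatocyte markers 5 were lower, with sums of 79224 to 129543 CPM on the control and 36545 to 88434 CPM on the high-fat diet. None of these markers was at 0 in every library.

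For each member the genes whose levels followed it most closely were sought among 12770 genes with a mean of at least 1 CPM, by Pearson's r of log2(CPM + 1) over 24 libraries after the mean of each diet and set had been subtracted. The libraries share depth and composition in these values, so they are given as a description. They are the highest values of the search and were not computed again without the libraries that stand apart. Igfbp7 had the closest companions, Cygb (r = 0.956), Timp2 (0.947) and Emp1 (0.942), which are cytoglobin, a metalloproteinase inhibitor and a membrane protein, and all were called higher on the high-fat diet. Igfbp3 was followed by Col14a1 (0.883), Arhgap10 (0.776) and Dse (0.771), and Igfbp1 by Slc35g1 (0.866), the leptin receptor gene Lepr (0.830) and Adcy1 (0.824). Igfbp2 was followed by Rnase4 (0.836) and Ang (0.822), overlapping ribonuclease genes whose reads may be split uncertainly, and by Dlg3 (0.819). For Igfbp4 the genes were Notum (0.800), which encodes a WNT deacylase, Anxa11 (0.742) and Nop53 (0.740). Igfbp6 was followed by the mesothelial marker Upk3b (0.828), Cpe (0.773) and Slc39a1-ps (0.672), and Igfbp5 by Slc39a1-ps (0.844), the smooth muscle marker Myh11 (0.678) and Ubfd1 (0.673). Slc39a1-ps is a pseudogene whose reads cannot be told apart with certainty from those of its parent gene. None of the genes named for Igfbp4, Igfbp5 and Igfbp6 was called with the diet. Col14a1 and Arhgap10 were called higher, Slc35g1, Rnase4 and Ang lower, and Dse, Lepr, Adcy1 and Dlg3 were not called.

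Correlations between members were tested within each diet, over 12 libraries, with the mean of each set subtracted. Over 21 pairs and both diets, 84 values (Pearson's r and Spearman's rho) were adjusted together, and 0 passed an adjusted p of 0.05, while 5 pairs on the control and 3 on the high-fat diet had an unadjusted permutation p of Pearson's r under 0.05. The lowest adjusted p belonged to Igfbp1 and Igfbp2 on the high-fat diet (r = 0.783, p = 0.001, adjusted p = 0.084; rho = 0.664, p = 0.0254, adjusted p = 0.213; permutation tests), where r dropped to 0.432 once the 2 libraries with the most extreme Igfbp1 levels were left out. Igfbp3 and Igfbp7 had r = 0.767 on the control diet (permutation p = 0.0108, adjusted 0.182; rho = 0.846, p = 0.00211, adjusted 0.0886) and r = 0.529 without the 2 most extreme libraries. Igfbp2 and Igfbp7 had the lowest value on that diet (r = −0.814, permutation p = 0.0105, adjusted 0.182; rho = −0.657, p = 0.032, adjusted 0.224), which was −0.446 without the 2 most extreme libraries. Igfbp2 and Igfbp3 had negative values on both diets (r = −0.744, permutation p = 0.0171, adjusted 0.205 on the control; r = −0.745, p = 0.00783, adjusted 0.182 on the high-fat diet). Without the 2 most extreme libraries these were −0.434 and −0.491. For every pair the libraries left out were the 2 farthest from the median of the first-named gene, so libraries extreme in the other gene may remain.

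**Figure D5:**
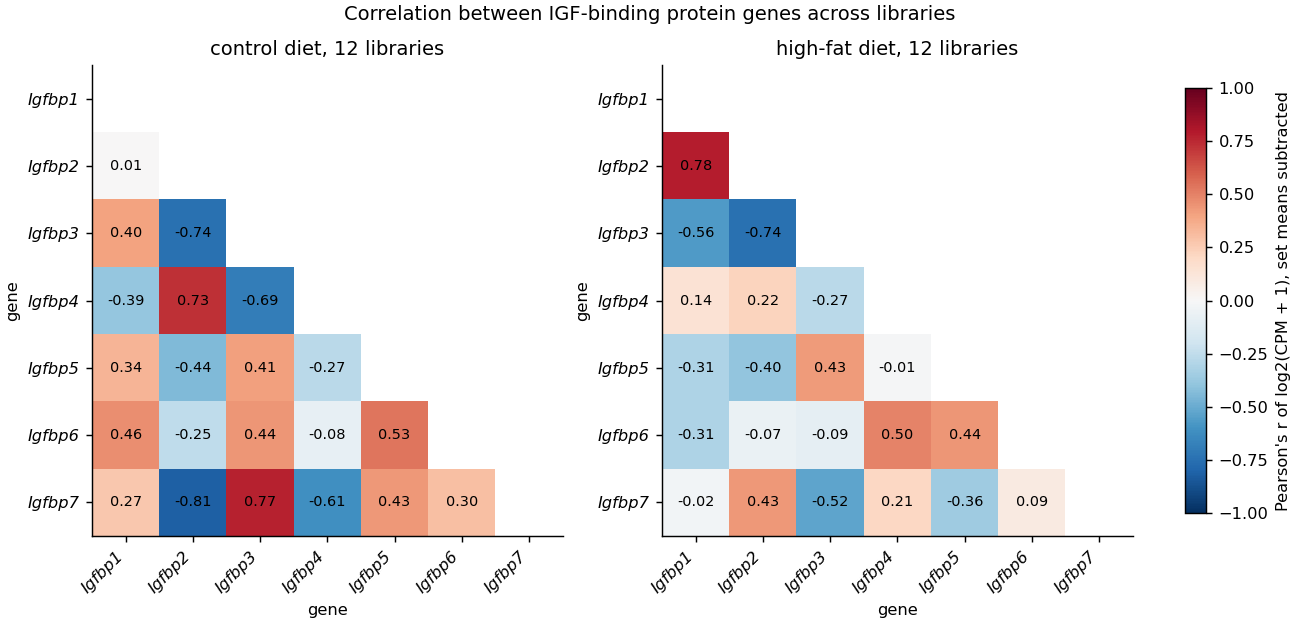
Each cell gives Pearson's r of log2(CPM + 1) between 2 genes (x and y axes) over the 12 libraries of a diet, after the mean of each set of libraries was subtracted, on a color scale from −1 to 1. The largest positive value on the high-fat diet is 0.783 for Igfbp1 with Igfbp2, and the lowest on the control diet is −0.814 for Igfbp2 with Igfbp7; none passed adjustment.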

How the data were processed

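The values deposited by the authors are raw counts per Ensembl gene in 24 poly(A)-selected libraries, not normalized; the submitters' processing notes name bcl2fastq, STAR 2.7.3a and mm10. The study's methods name a stranded mRNA kit, an exon quantification pipeline with STAR, and PISCES for gene expression, with a human reference only; whether these apply to the mouse libraries, their annotation and the strand setting are not given in the sources used here. Symbols were taken from GENCODE M21 for 51745 of 56205 IDs; the other IDs held 0.0723% of counts, so the authors' annotation was another. Columns were matched to libraries by title and diets came from the labels. Genes counted at least once in 12 or more libraries (17913) were fitted with edgeR 4.0.16 (R 4.3.3; TMM, quasi-likelihood test, diet as the only term, no replicate block), and a fit with diet, set and their interaction gave the difference between sets. The sets were split at 1000 Xist counts. Standard errors were derived from the F statistic. Single values used 2-sided permutation tests in scipy 1.17.1 (100000 resamples, exact within sets) and pseudocount 1. Exon lengths are unions of GENCODE M21 basic exons. The edgeR script was tested on simulated counts. The alternatives were DESeq2 1.42.0, limma-voom (limma 3.58.1), 2 other scalings, 3 other filters, 2 other thresholds, a replicate block, the set as a covariate or each set alone, each library left out, and pseudocount 0.1. Leaving out high-fat replicate 9 and control replicate 10 together was chosen after seeing the data.

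The members and gene lists were chosen with earlier results of these data known. Genes named were the 7 members, called genes of the pathway lists with Igf1, Igfals and Igf1r, markers beside a member, the 3 genes most like each member, and Xist and Ddx3y; Insr, Pappa, Polr2b and Gm34648 were named after their values were seen. Replicate numbers did not clearly pair libraries across diets. Correlations of deviations from diet means were 0.155 to 0.541 for 11 of 12 numbers and −0.0935 for replicate 9. Of 24 libraries 6 matched best with their own number. Libraries of the same number also share a set, whose mean was not subtracted, so these correlations cannot tell pairing from the set. No 2 libraries of a diet agreed within sampling noise (lowest chi-square per degree of freedom 9.48). The series text gives 6 mice per diet and sex but no label ties a library to a mouse, so p-values measure the spread between libraries. Libraries of other models in the series were not analysed here.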

Additional observations from a re-analysis of the deposited data

Results flagged for a closer look

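Single libraries stood apart from the other 5 of their diet and set, by Dixon's gap test, in 7 of 28 groups of 6 libraries tested. For normally distributed values chance flags about 1 in 20 groups. The CPM were not transformed and the groups share libraries, so that rate may not hold here. High-fat replicate 3 was highest for Igfbp1 (97.9 CPM, next 23.02) and Igfbp2 (719 CPM, next 419), and high-fat replicate 9 was highest for the same genes (56.3 CPM, next 31.6, and 764 CPM, next 302). Control replicate 11 was highest for Igfbp3 (44.8 CPM, next 20.0), high-fat replicate 5 for Igfbp5 (21.1 CPM, next 11.3) and high-fat replicate 11 for Igfbp6 (2.93 CPM, next 1.22).

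The members, the called genes of the pathway lists and Igf1, Igfals and Igf1r were screened for a diet effect that differed between the sets. By edgeR's interaction term with adjustment over all genes 1 of the 7 members passed, where 4.04% of tested genes did. Ghr and Igfals also passed. The pathway genes screened, other than Igf1r, had been called for diet in these same libraries, so 4.04% is not a like background for them. Markers and the genes most like each member were not in this screen. The log2 difference, Xist-low minus Xist-high, was 1.25 for Igfbp7 (adjusted p = 0.00486), −0.76 for Ghr (adjusted p = 0.00676) and −0.98 for Igfals (adjusted p = 0.00354). Igfals had 126 to 187 CPM in the Xist-high and 45.4 to 77.4 CPM in the Xist-low high-fat libraries, which did not overlap. Its control ranges, 161 to 256 and 126 to 223 CPM, overlapped. Igf1, which did not pass the screen, had 406 to 480 and 241 to 288 CPM in the high-fat sets, also without overlap. The share of all genes without overlap between the high-fat sets was not computed.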

How the results depend on the processing

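Igfbp7 and Igfbp5 stayed called higher over all 24 libraries under each other tool, scaling and filter (Igfbp7 1.15 to 1.52, Igfbp5 0.75 to 1.03 on the log2 scale) and without any 1 library. Igfbp5 was not called at a fold threshold of 1 on the log2 scale (0.76) or in the Xist-high libraries alone (0.80). Igfbp4 was called with no fold threshold and adjusted p up to 0.05 (−0.47), as was Igfbp3 (0.49), and in the Xist-low libraries (−0.59); it ran from −0.50 to −0.43 as single libraries were left out. Igfbp3 was called with library totals (0.74). Igfbp1 turned positive with DESeq2 (0.35), library totals (0.17), the set as a covariate (0.021) and in the Xist-low libraries (0.65), and ran from −0.44 to 0.32 as single libraries were left out; Igfbp2 turned positive with library totals (0.012). With the replicate block Igfbp1 was 0.064 and Igfbp7 1.13, no member's call changed, and 2063 genes were higher and 844 lower; numbers shared by libraries are not shown to pair them.

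Genes called in all were 2372 higher and 894 lower (72.6% higher). They were 3827 and 226 with library totals (94.4% higher), 3709 and 3388 with no fold threshold and adjusted p up to 0.05, and 520 and 158 in the Xist-high libraries. The higher count was 1226 among genes with at least 10 counts in every library, a filter that left Igfbp6 untested. The lower count was 216 at a fold threshold of 1 and 1431 in the Xist-low libraries.

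For the difference between sets, counts of genes with a larger and a smaller value in the Xist-low libraries were 461 and 263, 1200 and 118 with library totals, 909 and 443 with DESeq2, and 293 to 812 and 174 to 365 as single libraries were left out. The Igfbp7 difference ran from 1.06 to 1.45. Differences near 0 changed sign with library totals (Igfbp2 0.41, Igfbp4 0.12, Igfbp5 0.26) or single libraries: Igfbp2 ran from −0.52 to 0.20, Igfbp3 from −0.079 to 0.47, Igfbp5 from −0.19 to 0.19 and Igfbp6 from −0.18 to 0.81. Between sets on the control diet, Igfbp5 changed sign with library totals (−0.087). A pseudocount of 0.1 changed no call of the permutation tests or correlations. Without length scaling the shares on the control and high-fat diet were 78.3% and 70.6% for Igfbp4, 15.8% and 15.7% for Igfbp2, 3.50% and 10.1% for Igfbp7, and 0.252% and 0.536% for Igfbp5, since these genes differ in exon length. Where no construction shows it, the cause of a change was not tested. Counting error limits Igfbp6 (3 to 60 counts) and, less so, Igfbp5 (47 to 379).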
